A study of Mus musculus with 24 samples.

Results

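Gene expression in glia of the right hippocampus was compared between mice treated with kainic acid (KA) and sham mice (SH) 24 hours after status epilepticus. The comparison rests on all 6 libraries of NeuN- nuclei among the 12 mRNAseq libraries of the study, 3 per treatment, chosen by their labels alone. Adult male C57/BL6N mice received an injection of kainic acid (KA) or of saline (SH) into the deep cortex above the right hippocampus, and KA mice without convulsive seizures had been left out by the study. Right hippocampi of 8 mice per treatment were pooled, 4 in replicate 1 and 2 in each of replicates 2 and 3, so that a library is 1 pool and not 1 mouse. Nuclei were sorted on NeuN, a nuclear protein of most neurons, and the NeuN- fraction, referred to as glia, also holds endothelial cells, pericytes and NeuN-poor neurons. About 1 ng of RNA went into 10 cycles of PCR, but SH glia 1 and KA glia 2 started from about 0.05 ng and took 15 cycles. These are called the low-input libraries here, and there was 1 in each group.

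Kainate activates a class of glutamate receptors and drives neurons into prolonged seizure activity. Astrocytes, which normally clear glutamate and potassium and feed neurons, respond to such injury by becoming reactive, while microglia, the resident macrophages, change from a surveying to a phagocytic, cytokine-producing state. Oligodendrocytes form myelin, and their precursors carry proteoglycans and divide. Total counts of the 6 glial libraries ranged from 7769400 to 40364768, and 36165 to 47748 genes had at least 1 count. The 2 libraries of replicate 3 had the most counts, 40364768 in SH and 28721556 in KA glia. They also had the fewest genes with a count, 36165 and 37060, and the cause was not tested. By total counts alone, without the TMM factors used for the values given here, a floor of 3 counts was worth 0.0743 to 0.386 CPM in single libraries. Values are CPM, counts scaled to library size and TMM factors, listed for replicates 1, 2 and 3 in this order, logFC is the log2 difference of KA minus SH, and a gene was called up- or downregulated at an FDR below 0.25, the threshold the study used.

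Of 37598 genes tested, 166 were upregulated (0.442%) and 115 downregulated (0.306%) in KA glia, and the median logFC of all genes was 0.14. Protein-coding genes made up 156 of the upregulated and 110 of the downregulated genes. KA and SH libraries did not overlap for 279 of the 281 called genes, and over all genes tested every KA library lay above every SH library for 3.61% and below for 3.00%. Blocking on replicate number compares KA and SH pools of the same number, a pairing that the labels do not state. It called 1305 genes up (3.47%) and 1566 down (4.17%), among them all 166 and 115. A fit of the glial libraries alone, closer to the separate treatment of cell types in the study's methods, called 129 genes up (0.385%), 116 of them among the 166, and 17 down (0.0507%), all among the 115. Without both low-input libraries 40 of the upregulated genes and 1 downregulated gene remained past the threshold, although all 281 kept their direction. Leaving out 1 glial library at a time gave between 66 (without KA glia 3) and 314 (without SH glia 2) upregulated genes, and between 6 (without KA glia 2) and 240 (without SH glia 2) downregulated genes. The call was kept in all 6 of these fits for 58 upregulated and 6 downregulated genes.

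The largest logFC among called genes past 1 CPM on average was that of Ucn2 (ENSMUSG00000049699, chromosome 9 from 108986010 to 108987164), which encodes the stress peptide urocortin 2. Its level was 0, 0.0974 and 0 in SH glia and 8.78, 7.95 and 20.2 CPM in KA glia (logFC 8.36, standard error 1.23, FDR 0.0199). SH libraries held 2 counts in all and KA libraries 799, a ratio of rates of 429 with an exact 95% interval of 118 to 3550 that covers counting error alone. The next largest rises among called protein-coding genes of at least 1 CPM on average whose KA and SH libraries did not overlap were those of Spp1, Ch25h, Lilr4b, Timp1, Calca, Serpina3n and Tm4sf1, described with their families here. By the same rule the 8 largest falls were those of Hes5, Hapln1, Gdpd2, Prelp, Slc2a5, Plk5, Nkain4 and P2ry12. Among them, Gdpd2 (ENSMUSG00000019359), a glycerophosphodiester phosphodiesterase, had 27.9, 15.6 and 51.2 in SH glia and 4.69, 3.94 and 6.18 CPM in KA glia (logFC -2.67, FDR 0.0542). Prelp (ENSMUSG00000041577), a leucine-rich proteoglycan of connective tissue, had 13.9, 17.5 and 34.5 in SH glia and 6.26, 3.1 and 1.4 CPM in KA glia (logFC -2.63, FDR 0.175). All SH libraries lay above all KA libraries for both genes, and the calls were lost without SH glia 3 or KA glia 2 for Gdpd2 (FDR up to 0.326) and without SH glia 1, SH glia 3, KA glia 2 or KA glia 3 for Prelp (FDR up to 0.862). Counting ignored the strand and dropped reads shared between exons of different genes, and exons of another gene covered at least 10% of the exon bases of Hes5 (31.8%), Ccn2 (23.2%), Spp1 (18.8%), Gdpd2 (17.3%), Cebpd (15%), Gpd1 (13%) and Ch25h (11.5%) among the genes given with values here.

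**Figure D1:**
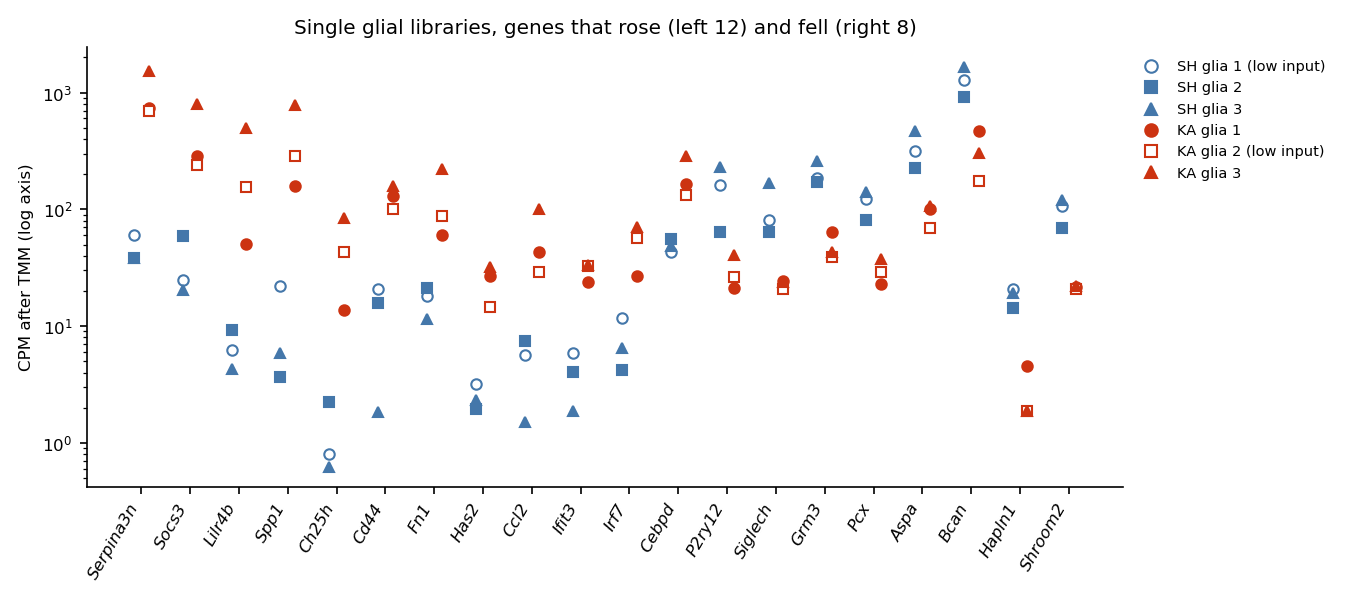
Level of 20 genes in each of the 6 glial libraries, in CPM after TMM normalization on a log axis, with blue symbols for SH, red symbols for KA and open symbols for the low-input libraries. KA and SH symbols do not overlap for any gene shown, as for 279 of the 281 called genes, and the KA symbols spread most for Lilr4b, from 50.1 to 493 CPM.

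Lists of cell type markers gave the make-up of the sorted nuclei. Summed markers of oligodendrocytes were 11980 to 25010 CPM in SH and at most 992.6 CPM in any library of neurons, and those of microglia were 1058 to 2488 CPM in SH glia and at most 105 CPM in neurons. Astrocytic markers were 2283 to 3601 CPM in SH glia and 191.2 to 837.9 CPM in neurons. Endothelial markers overlapped, with 14.4 to 47.91 CPM in SH glia and 14.04 to 31.87 CPM in neurons. So did ependymal and choroid plexus markers, with 22.05 to 178.9 CPM in SH glia and 29.72 to 84.26 CPM in neurons. The summed level of 6 oligodendrocyte precursor markers was 0.475 times as high in KA as in SH, with 1934 to 3431 CPM in SH and 864.8 to 1650 CPM in KA and no overlap (exact two-sided permutation test, p = 0.1, adjusted p = 0.36 over 9 lists). A p of 0.1 is the smallest that 3 against 3 libraries allow. Oligodendrocytic (0.47), microglial (0.621), astrocytic (0.677) and neuronal (0.737) markers had ratios below 1, and endothelial (1.38), blood leukocyte (1.3) and pericytic (1.06) markers ratios above 1. Their groups overlapped, with exact permutation p values from 0.2 to 1. Within pools of the same number KA lay below SH in 3 of 3 pairs for neuronal, astrocytic, microglial, oligodendrocytic, precursor, and ependymal and choroid plexus markers. It lay above in 3 of 3 pairs for endothelial and blood leukocyte markers, and below in 2 of 3 for pericytic markers. The labels do not state this pairing, and the agreement of so few pairs was not tested. The 7 ependymal and choroid plexus markers summed to 178.9 CPM in SH glia 1 and to 19.27 to 38.94 CPM in the others, and their ratio was 0.368 with SH glia 1 and 1.17 without the low-input libraries. In bulk nuclei of this kind, fewer nuclei of a cell type and less RNA per nucleus cannot be told apart.

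**Figure D2:**
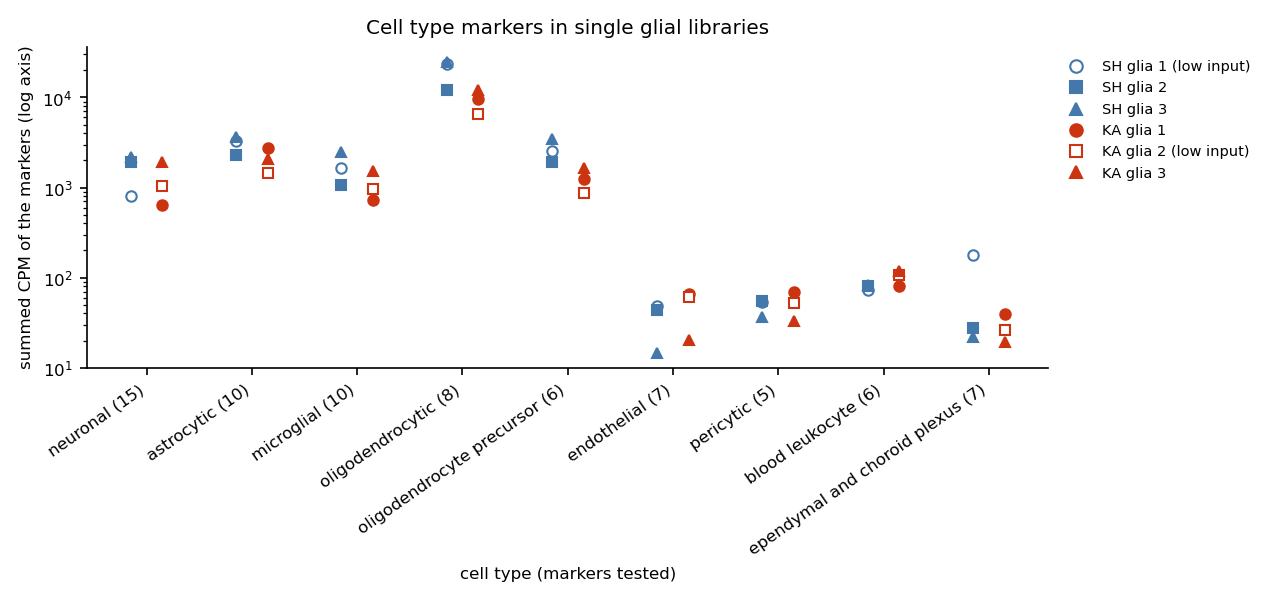
Summed CPM of each list of cell type markers in the 6 glial libraries, on a log axis, with the number of markers tested in brackets. Oligodendrocyte precursor markers are lower in all 3 KA than in all 3 SH libraries, and SH glia 1 stands apart for ependymal and choroid plexus markers at 178.9 CPM.

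All gene lists were written with the study's results on these data known, so that their shares of called genes are descriptions and not tests. The lists of reactive astrocytes follow marker sets that are in wide use. Of 13 genes that mark reactive astrocytes of any kind, 5 were upregulated (38.5%, where 0.442% of all genes were), and the list had a median logFC of 2.62. The block called 11 of them and the fit without low-input libraries 5. In the NeuN+ libraries of the same pools 4 of the 13 were also upregulated, where 0.279% of all genes were. Astrocytic markers summed to 191.2 to 837.9 CPM in those libraries, and the part of astrocyte RNA in these calls was not tested. Serpina3n (ENSMUSG00000021091, chromosome 12 from 104406729 to 104414329), a secreted inhibitor of serine proteases, had 60.1, 38 and 38.2 in SH glia and 744, 698 and 1530.2 CPM in KA glia (logFC 4.45, standard error 0.51, FDR 0.0059). It had the smallest FDR of all genes, and the lowest KA library lay far above the highest SH library. Timp1 (ENSMUSG00000001131, chromosome X from 20870166 to 20874735), an inhibitor of matrix metalloproteinases, had 1.05, 0.535 and 0.717 in SH glia and 23.7, 15.1 and 20.8 CPM in KA glia (logFC 4.71, standard error 0.72, FDR 0.0214). Of S1pr3, a receptor of sphingosine-1-phosphate, the levels were 8.92, 11.1 and 6.96 in SH glia and 70.8, 81.1 and 101 CPM in KA glia (logFC 3.23, FDR 0.0257). The hyaluronan receptor Cd44 had 20.7, 15.8 and 1.82 in SH glia and 131, 100.4 and 157 CPM in KA glia (logFC 3.35, FDR 0.066), and its SH level was lowest in replicate 3. These 4 genes kept their calls whichever glial library was left out. The small heat shock protein gene Hspb1 was the fifth, with 2.09, 0.974 and 0.149 in SH glia and 13.8, 8.34 and 24.5 CPM in KA glia (logFC 3.93, FDR 0.0918), and was no longer called without SH glia 3 or KA glia 3 (FDR up to 0.264). Gfap, which encodes the intermediate filament used to stain astrocytes and was picked after its values were seen, had 136, 119 and 176 in SH glia and 568, 359.6 and 720.0 CPM in KA glia and did not pass (logFC 1.94, FDR 0.546), but passed with the block (logFC 1.9, FDR 0.00142).

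The A1 and A2 sets separate genes of astrocytes after inflammation from those after ischaemia. In the A2 set 8 of 12 genes were upregulated (66.7%, median logFC 2.49), 11 with the block, 4 without low-input libraries, and 5 without SH glia 3 or without KA glia 3. In the A1 set 1 of 12 genes was upregulated (8.33%, median logFC 0.59) and 2 with the block. Neurons of the same pools had 5 of the 12 A2 genes and 0 of the 12 A1 genes upregulated, where 0.279% of all genes were. Sphk1 (ENSMUSG00000061878, chromosome 11 from 116530925 to 116536674), the kinase that makes sphingosine-1-phosphate, had 5.95, 8.71 and 1.73 in SH glia and 76.7, 45 and 127 CPM in KA glia (logFC 3.93, standard error 0.62, FDR 0.0257). Emp1, a membrane protein of the claudin-related family, had 2.09, 1.75 and 0.568 in SH glia and 21.5, 9.52 and 29.4 CPM in KA glia (logFC 3.8, FDR 0.0284). For Tm4sf1, a tetraspanin-like membrane protein, the values were 15.8, 5.5 and 2.06 in SH glia and 193, 117 and 150.03 CPM in KA glia (logFC 4.32, FDR 0.0339). All 3 kept their calls without any 1 library. Ptgs2, the inducible cyclooxygenase of prostaglandin synthesis, had 3.86, 10.4 and 8.61 in SH glia and 19.7, 47.5 and 59.8 CPM in KA glia (logFC 2.47, FDR 0.0438) and an FDR of 0.272 without KA glia 2. The other called A2 genes were Slc10a6, Ptx3, Clcf1 and Cd14, and the called A1 gene was Iigp1, also an interferon-stimulated gene. Of the sphingosine-1-phosphate pathway, 2 of 16 genes were upregulated (12.5%), namely Sphk1 and S1pr3, in every fit that left out libraries. The list had a median logFC of -0.42. The block called 3 others down.

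Cytokines of the IL-6 family signal through the shared receptor gp130, Janus kinases and STAT3, and induce their own inhibitors of the SOCS family. Of 28 genes tested, 9 were upregulated (32.1%, median logFC 0.96), with 16 up and 3 down by the block, 2 without low-input libraries, and 4 without SH glia 1, SH glia 3 or KA glia 3. Socs3 (ENSMUSG00000053113, chromosome 11 from 117966079 to 117970047), the feedback inhibitor of gp130, had 24.7, 59 and 20.4 in SH glia and 284, 238 and 801 CPM in KA glia (logFC 3.67, standard error 0.63, FDR 0.0295). Bcl3 (ENSMUSG00000053175, chromosome 7 from 19808462 to 19822770), an atypical IκB protein, had 5.79, 10.1 and 3.23 in SH glia and 51.7, 66.7 and 177 CPM in KA glia (logFC 3.95, FDR 0.0295). Both were highest in KA glia 3, and the lowest KA value lay several-fold above the highest SH value. The cytokine Il11 had 0.804, 0.925 and 0.926 in SH glia and 14, 8.37 and 13.5 CPM in KA glia (logFC 3.74, FDR 0.0438). Of the transcription factor Cebpd the levels were 43.3, 55.5 and 48.3 in SH glia and 164, 133 and 288 CPM in KA glia (logFC 1.99, FDR 0.0469). These 4 calls held without any 1 library. Il4ra, Clcf1, Socs2, Cebpb and Lif were the other upregulated members, and Cebpb shares exon sequence on the opposite strand with Tmem189, which unstranded counting cannot assign. The shared receptor Il6st and the kinases Jak1, Jak2 and Tyk2 were not called.

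Type I and type II interferons act on most cells through transcription factors of the STAT family and induce many antiviral genes, whose promoters carry the interferon-stimulated response element (ISRE). Of 38 such genes tested, 15 were upregulated (39.5%), 33 with the block and 3 without low-input libraries, and between 7 (without SH glia 3) and 16 (without SH glia 1) with 1 library left out. Every KA library lay above every SH library for 32 of them, as for 3.61% of all genes tested, and the list had a median logFC of 1.84. Promoter stretches of 5 called genes are shown to let the ISRE core be seen in its context, 4 with more than 1 match and that of Rsad2 with a single match. The sequences come from RefSeq promoters of GRCm38.p6 that run from 250 bases before to 50 bases after a start, are written on the gene's strand, and have the core GAAANNGAA, or its reverse complement TTCNNTTTC, in capitals.
Ifit3 (chr19:34583366-34583443, plus strand, bases -163 to -86): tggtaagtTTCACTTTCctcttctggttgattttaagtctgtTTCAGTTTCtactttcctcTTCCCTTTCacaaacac
Ifit1 (chr19:34640772-34640821, plus strand, bases -117 to -68): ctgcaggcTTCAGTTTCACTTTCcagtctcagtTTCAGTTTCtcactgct
Bst2 (chr8:71537580-71537610, minus strand, bases -138 to -108): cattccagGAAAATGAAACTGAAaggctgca
Irgm1 (chr11:48871428-48871458, minus strand, bases -38 to -8): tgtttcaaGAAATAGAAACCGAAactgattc
Rsad2 (chr12:26456555-26456579, minus strand, bases -127 to -103): gtccaactTTCATTTTCagaaaaca

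A run of capitals longer than the core in Ifit1, Bst2 and Irgm1 holds overlapping matches. The stretch of Ifit3 was identical, over 78 of 78 bases, in its neighbour Ifit3b (chr19:34607762-34607839), and reads of such close copies may be split between them, so that their counts are uncertain. On either strand, 9.76% of the 27025 genes with a RefSeq promoter held the core. Of the 15 called interferon-stimulated genes 10 had a promoter in the table and 8 of these held it, and of the 23 not called 18 had a promoter and 11 held it. The share of promoters with the core was thus high in called and uncalled members alike, and a match is a description of these letters, not a shown binding site.

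Ifit3 (ENSMUSG00000074896, chromosome 19 from 34583531 to 34588731), which encodes an RNA-binding antiviral protein, had 5.87, 4.04 and 1.88 in SH glia and 23.9, 32.8 and 33.5 CPM in KA glia (logFC 2.95, standard error 0.47, FDR 0.0257). The neighbouring copy Ifit3b had 3.14, 1.95 and 1.08 in SH glia and 13.4, 13.2 and 10.2 CPM in KA glia (logFC 2.59, FDR 0.0921) and was no longer called without SH glia 3 or KA glia 2 (FDR up to 0.441). The levels of Irf7 (ENSMUSG00000025498, chromosome 7 from 141262706 to 141266481), the transcription factor that amplifies interferon production, were 11.7, 4.24 and 6.45 in SH glia and 27, 56.7 and 70.3 CPM in KA glia (logFC 2.79, standard error 0.52, FDR 0.0439). Iigp1, an interferon-inducible GTPase, had 0.724, 2.39 and 1.08 in SH glia and 11.1, 10.8 and 9.72 CPM in KA glia (logFC 2.9, FDR 0.0438), close to each other in the 3 KA pools. Oasl2, of the oligoadenylate synthetase family, had 7.4, 7.2 and 3.17 in SH glia and 24.6, 30.1 and 59.1 CPM in KA glia (logFC 2.69, FDR 0.0439). Ifit3, Irf7, Iigp1 and Oasl2 kept their calls without any 1 library. Of the genes whose promoters are shown, Bst2, which tethers virions to the cell surface, had 4.5, 1.31 and 2.99 in SH glia and 14.7, 13.4 and 14.7 CPM in KA glia (logFC 2.29, FDR 0.128). Irgm1, another GTPase, had 17.7, 20.6 and 11.7 in SH glia and 50.5, 54.5 and 47.3 CPM in KA glia (logFC 1.61, FDR 0.12). The calls of Bst2, Irgm1, Ifit1 and Rsad2 were each lost without 3 or more of the 6 libraries in turn, among them SH glia 3, with FDR up to 0.478, 0.636, 0.555 and 0.566. In neurons of the same pools Ifit1 had the highest value of the called members (logFC 2.1, FDR 0.474) and was not called. The study's own list, at the same threshold, has Ifit1 as upregulated in neurons. In neurons edgeR's quasi-likelihood test called 0 of the 38 genes (0.279% of all genes were upregulated there), with 6 up at an unadjusted p below 0.05, 2 called by DESeq2 and 0 by limma-voom. The logFC was higher in glia than in neurons for 37 of the 38. The test of that difference, an interaction, called 0 of them by edgeR, with 13 at an unadjusted p below 0.05, 1 called by DESeq2 and 0 by limma-voom. With a block by pool edgeR called 4 (0.471% of all genes), namely Iigp1, Ifit3, Nlrc5 and Rsad2, all higher in glia.

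**Figure D3:**
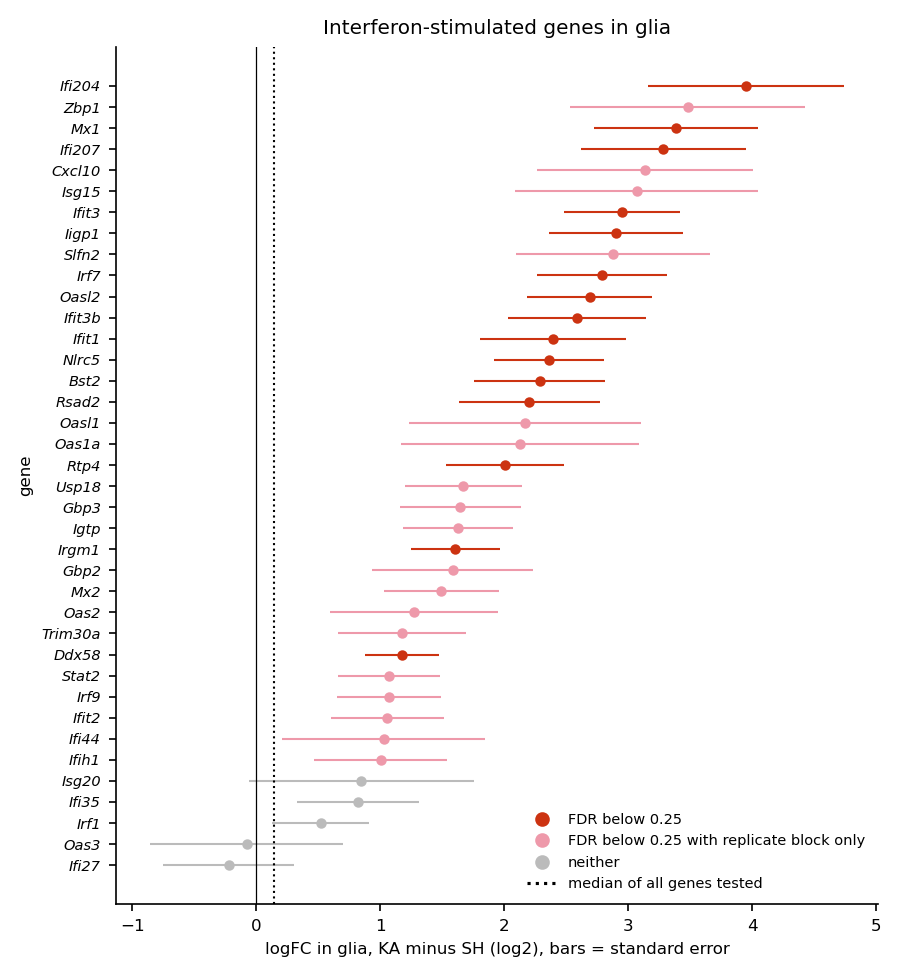
logFC of KA minus SH in glia for the 38 interferon-stimulated genes tested, with bars for the standard error, red for genes called, pink for genes called with the replicate block alone, and a dotted line at the median of all genes, 0.14. The 15 called genes lie between 1.17 (Ddx58) and 3.95 (Ifi204), and 36 of 38 values are above 0.

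Chemokines attract leukocytes and microglia. Of 17 tested, 3 were upregulated (17.6%, median logFC 1.05), 6 with the block (and 1 down), 2 without low-input libraries, and between 2 and 5 (without SH glia 2) with 1 library left out. All 3 attract monocytes and lie in 1 gene cluster on chromosome 11. Ccl2 (ENSMUSG00000035385, chromosome 11 from 82035571 to 82037453) had 5.63, 7.4 and 1.52 in SH glia and 42.9, 29.2 and 101 CPM in KA glia (logFC 3.58, standard error 0.58, FDR 0.0257). Ccl12 had 11.7, 2.92 and 2.27 in SH glia and 29.2, 33.7 and 77.1 CPM in KA glia (logFC 3.08, FDR 0.0542), and Ccl2 and Ccl12 kept their calls without any 1 library. Ccl7 had 0.241, 3.94 and 0.448 in SH glia and 14.6, 12.4 and 29.2 CPM in KA glia (logFC 3.59, FDR 0.18) and was no longer called without SH glia 1, SH glia 3 or KA glia 3 (FDR up to 0.579). Of 24 genes of interleukin-1 and TNF signalling, 3 were upregulated (12.5%) and 1 downregulated (4.17%), with a median logFC of 0.52, 8 up and 2 down by the block, and 2 up without low-input libraries. Tnfrsf12a, the receptor of the cytokine TWEAK, had 15.8, 15.4 and 5.86 in SH glia and 93.8, 41.6 and 111 CPM in KA glia (logFC 2.74, standard error 0.49, FDR 0.0339) and kept its call without any 1 library. Ptx3, a secreted pentraxin induced by interleukin-1, had 14.1, 1.66 and 2.39 in SH glia and 88.6, 31.4 and 51.6 CPM in KA glia (logFC 3.27, FDR 0.131), with the SH value of replicate 1 several times those of the other pools and an FDR of 0.531 without SH glia 3. Traf4, an adaptor of TNF receptor signalling, was the downregulated member, with 81.1, 46.3 and 79.1 in SH glia and 25.1, 15.1 and 20.3 CPM in KA glia (logFC -1.77, FDR 0.0651), and was no longer called without SH glia 3 or KA glia 2 (FDR up to 0.478).

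All calls among genes of activated and phagocytic microglia were rises, and all among genes of surveying microglia were falls. Both lists were written with the study's results known, and all called members but Cd14 are in its lists of genes changed in glia. The split of directions thus describes the members chosen and is no test. Of 30 activation genes 12 were upregulated (40%, median logFC 1.56), 20 with the block (and 1 down), 7 without low-input libraries, and 10 to 12 with 1 library left out. Ch25h (ENSMUSG00000050370, chromosome 19 from 34473778 to 34475164), which makes 25-hydroxycholesterol, had 0.804, 2.24 and 0.628 in SH glia and 13.6, 43.4 and 83.8 CPM in KA glia (logFC 5.26, standard error 0.7, FDR 0.0199). Lilr4b, an inhibitory receptor of myeloid cells, had 6.27, 9.25 and 4.3 in SH glia and 50.1, 154 and 493 CPM in KA glia (logFC 5.14, standard error 0.72, FDR 0.0199). It and its relative Lilrb4a share exon sequence with Gm49339 on the same strand, and counts within this receptor family are uncertain. Spp1 (ENSMUSG00000029304, chromosome 5 from 104435118 to 104441050), which encodes the secreted phosphoprotein osteopontin, had 22.2, 3.65 and 5.86 in SH glia and 159.6, 287 and 786 CPM in KA glia (logFC 5.3, standard error 0.82, FDR 0.0241). Of its exon bases 18.8% lie in Gm42793 on the same strand, and reads there are not assigned to Spp1. Thbd, the thrombin receptor thrombomodulin, had 4.42, 7.93 and 3.59 in SH glia and 44.8, 32.1 and 36.4 CPM in KA glia (logFC 2.83, FDR 0.0199). These 4 genes kept their calls without any 1 library, and for Lilr4b, Spp1 and Ch25h the KA pools differed among themselves, lowest in replicate 1 and highest in replicate 3. Fgl2, Lilrb4a, Cd300lf, Adam8, Msr1, Cd44, Lpl and Cd14 were the other upregulated members.

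Of 25 homeostatic microglia genes 4 were downregulated (16%, where 0.306% of all genes were), with a median logFC of -0.61, 11 down and 1 up by the block, and 2 down with glial libraries alone. Between 1 (without KA glia 2) and 7 (without SH glia 2) were called with 1 library left out. The single downregulated gene that remained without low-input libraries was not among them. Siglech (ENSMUSG00000051504, chromosome 7 from 55768178 to 55778925), a sialic acid receptor of microglia, had 80.6, 63.8 and 168 in SH glia and 24.5, 20.9 and 23.7 CPM in KA glia (logFC -2.18, standard error 0.37, FDR 0.0295), and its FDR was 0.256 without KA glia 2. P2ry12 (ENSMUSG00000036353, chromosome 3 from 59216272 to 59262871), the ADP receptor by which microglial processes find injured cells, had 163, 63.6 and 229 in SH glia and 21.1, 26.2 and 40.4 CPM in KA glia (logFC -2.38, standard error 0.5, FDR 0.0826). Selplg, the ligand of P-selectin, had 202, 104 and 274 in SH glia and 39.4, 43.7 and 62.6 CPM in KA glia (logFC -1.99, FDR 0.107). Both were no longer called without SH glia 3, KA glia 1 or KA glia 2, with FDR up to 0.503 for P2ry12 and 0.678 for Selplg. Slc2a5, a fructose transporter found in microglia, had 36.6, 16.4 and 39.5 in SH glia and 6.52, 6.58 and 2.92 CPM in KA glia (logFC -2.53, FDR 0.0438) and kept its call without any 1 library. The 10 microglial markers summed to 0.621 times the SH level in KA, with overlapping groups, and the part of that sum in these falls was not tested. The complement list had 0 of 16 genes called by edgeR's quasi-likelihood test, 2 up at an unadjusted p below 0.05, 3 up with the block, 2 up by DESeq2 and 0 by limma-voom, and a median logFC of 0.32. Its 2 smallest p values belonged to the anaphylatoxin receptors C5ar1 (44.7, 19.7 and 21.8 in SH glia and 47.6, 51.6 and 121 CPM in KA glia, logFC 1.35, FDR 0.579) and C3ar1 (38.8, 28.9 and 32.3 in SH glia and 42.1, 60.8 and 127 CPM in KA glia, logFC 1.2, FDR 0.665). Neither passed in the full comparison, and C5ar1 alone passed when SH glia 1 was left out.

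Among 27 genes of cholesterol and lipid transport 2 were upregulated (7.41%) and 3 downregulated (11.1%), with a median logFC of -0.06, 5 up and 11 down by the block, 1 up and none down with glial libraries alone, and 1 up without low-input libraries. Beside Ch25h, lipoprotein lipase (Lpl) had 34.9, 46 and 9.89 in SH glia and 84.4, 109 and 176 CPM in KA glia (logFC 2.03, FDR 0.131) and was no longer called without SH glia 3, KA glia 2 or KA glia 3 (FDR up to 0.437). Abca9 (ENSMUSG00000041797) and Abca6 (ENSMUSG00000044749), neighbouring lipid transporters of the ABCA family, fell. The levels of Abca9 were 38.7, 37.2 and 107 in SH glia and 17, 14.8 and 11.9 CPM in KA glia (logFC -2.07, FDR 0.0618), and those of Abca6 were 27.4, 22.7 and 44 in SH glia and 13.2, 11.8 and 8.61 CPM in KA glia (logFC -1.49, FDR 0.235). Plin3, a coat protein of lipid droplets, had 107, 39.9 and 125 in SH glia and 24.9, 18.9 and 19.5 CPM in KA glia (logFC -2.11, FDR 0.11). None of these 3 falls held without SH glia 3 or without KA glia 2, with FDR up to 0.475 for Abca9, 0.478 for Plin3 and 1.00 for Abca6.

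Immediate early genes encode transcription factors that neurons and glia induce within minutes of stimulation, and their level was read here at 24 hours. Of 24 tested, 9 were upregulated (37.5%, median logFC 1.83), 16 with the block, 2 with glial libraries alone, 2 without low-input libraries, and between 2 (without SH glia 3 or KA glia 3) and 13 (without SH glia 2) with 1 library left out. Ier5l (ENSMUSG00000089762, chromosome 2 from 30471537 to 30474219) had 10, 9.25 and 8.61 in SH glia and 45.1, 38.8 and 96.4 CPM in KA glia (logFC 2.69, standard error 0.4, FDR 0.0199). Ier3, a stress-induced survival factor, had 5.95, 5.31 and 3.5 in SH glia and 25.3, 13.8 and 48.1 CPM in KA glia (logFC 2.57, FDR 0.0438). Both kept their calls without any 1 library. The AP-1 subunit Fos had 12.8, 50.2 and 6.07 in SH glia and 157, 88.3 and 217 CPM in KA glia (logFC 2.74, FDR 0.127), and SH glia 2 lay well above the other SH pools. Its relative Fosb had 0.482, 1.56 and 0.837 in SH glia and 5.82, 2.83 and 7.91 CPM in KA glia (logFC 2.5, FDR 0.11). Both were lost without SH glia 1, SH glia 3 or KA glia 3, with FDR up to 0.405 for Fos and 0.475 for Fosb. Npas4, Myc, Egr2, Fosl2 and Junb were the other called members. Of the 9, 5 were also called in neurons, where 0.279% of all genes were upregulated. The CArG box of serum response factor was found in 1 of 8 called members with a RefSeq promoter and in 1.81% of all genes with one, and is shown in capitals for Egr2 as the classical element of this gene class.
Egr2 (chr10:67537486-67537511, plus strand, bases -80 to -55): gatcttctCCTTTTTTGGaaagtctc

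The AP-1 site TGANTCA was in no promoter of these 8 genes and in a promoter of 8.97% of all genes, on either strand, and no match says that these letters are not in this window alone. RNA of neurons in the NeuN- fraction was estimated from 15 neuronal markers, as the median of the level in a glial library over the mean level in neurons of the same treatment. The share was 13.4%, 32.1% and 30.5% in SH and 10.4%, 18.0% and 30.6% in KA glia, a difference in means of -5.64 percentage points (exact two-sided permutation test, p = 0.6), and between -11.6 and -1.02 with 1 library left out. Taken as the mean over the markers in place of the median, the ratio was 41.1%, 63.7% and 72.6% in SH and 29.9%, 31.9% and 59.6% in KA glia, a difference in means of -18.65 percentage points (exact two-sided permutation test, p = 0.2). The mean lay above the median in every library, so that single markers with a high level in glia weigh on it, and it is no measured share. By the study's own measurement the sorted NeuN- fraction was of high purity, and both figures here are of RNA. By either measure KA groups overlapped SH groups. The level of the 9 called immediate early genes in glia was 15.9% to 202% of that in neurons in SH and 8.32% to 410% in KA, and 1 of the 9 lay below the neuronal share by the median in each treatment, and 4 in SH and 3 in KA by the mean. The part of neuronal RNA in the rise was not tested.

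Hyaluronan, lecticans and link proteins form the matrix around neurons and precursors. Of 20 genes of this matrix 4 were upregulated (20%) and 3 downregulated (15%), with a median logFC of 0.29, 4 up and 5 down by the block, 3 up and 1 down with glial libraries alone, and 3 up without low-input libraries. The hyaluronan synthase Has2 (ENSMUSG00000022367, chromosome 15 from 56665627 to 56694539) had 3.22, 1.95 and 2.33 in SH glia and 26.7, 14.6 and 32.4 CPM in KA glia (logFC 3.3, standard error 0.57, FDR 0.0295). Tenascin C (Tnc), a glycoprotein of injured tissue, had 31.2, 25.2 and 17.1 in SH glia and 96.8, 80.6 and 149.9 CPM in KA glia (logFC 2.16, FDR 0.0324). With Cd44 and the hyaluronan receptor Layn (3.05, 3.36 and 3.79 in SH glia and 15.9, 8.91 and 12.8 CPM in KA glia, logFC 1.88, FDR 0.187), the rises thus held 1 synthase, 2 receptors and 1 glycoprotein. Hapln1 (ENSMUSG00000021613, chromosome 13 from 89539796 to 89611652), the link protein that ties lecticans to hyaluronan, had 20.8, 14.3 and 19.3 in SH glia and 4.52, 1.87 and 1.89 CPM in KA glia (logFC -2.74, standard error 0.45, FDR 0.0284). Brevican (Bcan), the lectican of astrocytes and precursors, had 1274, 909 and 1657 in SH glia and 470.3, 173 and 304 CPM in KA glia (logFC -2.02, FDR 0.193). Susd5, a hyaluronan-binding membrane protein, had 55.2, 31.4 and 61.2 in SH glia and 16.3, 16 and 9.55 CPM in KA glia (logFC -1.82, FDR 0.0651). Has2, Tnc, Cd44 and Hapln1 kept their calls without any 1 library. Layn was lost in each of the 6 fits (FDR up to 0.874), Bcan without SH glia 1, SH glia 3, KA glia 1, KA glia 2 or KA glia 3 (FDR up to 1.00) and Susd5 without SH glia 1, SH glia 3, KA glia 2 or KA glia 3 (FDR up to 0.395).

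Fibronectin, collagens and proteins of the basement membrane had 6 of 27 members upregulated (22.2%, median logFC 0.30), 12 with the block (and 2 down), 3 with glial libraries alone, 1 without low-input libraries, and 2 without KA glia 2 or KA glia 3. Fibronectin (Fn1, ENSMUSG00000026193, chromosome 1 from 71585520 to 71653200) had 18.2, 21.4 and 11.5 in SH glia and 60.1, 88.5 and 220.2 CPM in KA glia (logFC 2.85, standard error 0.48, FDR 0.0284). Ecm1, a secreted glycoprotein, had 8.04, 7.79 and 9.29 in SH glia and 39, 33.8 and 67.7 CPM in KA glia (logFC 2.48, FDR 0.0284), and both genes kept their calls without any 1 library. Ccn2, which overlaps Gm15270 on the opposite strand, Col12a1, Col16a1 and Ccn1 were the others called. Of 25 integrins and syndecans 4 were upregulated (16%, median logFC 0.07), 7 with the block (and 5 down), none of them without low-input libraries, and 1 without SH glia 3, KA glia 2 or KA glia 3. Itga5 (ENSMUSG00000000555, chromosome 15 from 103344286 to 103366763), the α subunit of the fibronectin receptor, had 14, 18.9 and 13.8 in SH glia and 85.5, 95 and 278 CPM in KA glia (logFC 3.3, standard error 0.61, FDR 0.0438) and kept its call without any 1 library. The proteoglycan Sdc1 had 5.55, 6.18 and 4.6 in SH glia and 12.5, 18 and 23.6 CPM in KA glia (logFC 1.73, FDR 0.126). Itga1 and Itga7 were also called (logFC 1.39 and 1.53), and Itga7 in none of the 6 fits with 1 library left out (FDR up to 0.862). Fn1 and Itga5 were each highest in KA glia 3, as were many other upregulated genes, among them Serpina3n, Socs3 and Spp1. A joint change of the 2 genes was not tested.

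Of 30 extracellular proteases and their inhibitors 9 were upregulated (30%) and 1 downregulated (3.33%), with a median logFC of 0.95, 15 up and 4 down by the block, 4 up without low-input libraries, and 5 up without SH glia 3 or KA glia 3. The inhibitors Serpina3n, Timp1 and Serpina3i were among the rises, and Serpina3n and Serpina3i belong to a cluster of similar genes whose reads may be split. The kallikreins Klk6 and Klk9 are neighbouring serine protease genes on chromosome 7. Klk6 (ENSMUSG00000050063, chromosome 7 from 43824499 to 43832030) had 13.3, 4.72 and 4.36 in SH glia and 45.3, 56.2 and 95.2 CPM in KA glia (logFC 3.15, standard error 0.51, FDR 0.0257). Klk9 had 1.53, 1.36 and 0.598 in SH glia and 8.6, 10.4 and 19.1 CPM in KA glia (logFC 3.47, FDR 0.0293), and both kept their calls without any 1 library. The metalloproteinase Adam8, the urokinase receptor Plaur and the protease of IGF-binding proteins Pappa were also upregulated. Mmp2, a gelatinase, fell, with 19.3, 20.3 and 31.8 in SH glia and 5.82, 6.0 and 7.25 CPM in KA glia (logFC -1.9, FDR 0.189), and was no longer called without SH glia 1, SH glia 3, KA glia 1, KA glia 2 or KA glia 3 (FDR up to 0.904).

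The actin cytoskeleton and the targets of YAP and TAZ, coactivators that respond to cell shape, had 9 of 34 members upregulated (26.5%) and 4 downregulated (11.8%), with a median logFC of 1.14. The block called 15 up and 4 down, the fit of glial libraries alone 9 up and 1 down, the fit without low-input libraries 2 up, and that without SH glia 3 or KA glia 3 4 up. Flnc, a filamin that cross-links actin, had 7.72, 19.6 and 6.19 in SH glia and 93.5, 96.6 and 248 CPM in KA glia (logFC 3.71, standard error 0.71, FDR 0.0494). Ahnak2, a giant scaffold protein, had 1.21, 2.14 and 2.09 in SH glia and 17.2, 16.3 and 49.2 CPM in KA glia (logFC 3.91, FDR 0.0257). Rai14, an actin-binding ankyrin protein, had 12.5, 11.7 and 10.4 in SH glia and 32.1, 31.4 and 50 CPM in KA glia (logFC 1.72, FDR 0.0339). With Emp1, these 4 genes kept their calls without any 1 library. Shroom2 (ENSMUSG00000045180, chromosome X from 152609509 to 152769465), a regulator of actin and cell shape, fell, with 107, 68.8 and 119 in SH glia and 21.8, 20.6 and 22.2 CPM in KA glia (logFC -2.19, standard error 0.31, FDR 0.0199), 3 KA values that differed little, and a call kept without any 1 library. Pls1, Myh14 and Amotl2 also fell (logFC -1.55, -1.73 and -1.4) and were lost without SH glia 3, KA glia 1 or KA glia 2 (FDR up to 0.736, 1.00 and 1.00).

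Mature astrocytes take up transmitters and ions through a set of carriers and receptors. Of 26 transport and homeostasis genes 4 were downregulated (15.4%, median logFC -0.96), 18 with the block, 1 with glial libraries alone, and none of them without KA glia 2 or without both low-input libraries. Grm3 (ENSMUSG00000003974, chromosome 5 from 9485541 to 9725170), a metabotropic glutamate receptor, had 185, 172 and 257 in SH glia and 63.6, 38.8 and 42.8 CPM in KA glia (logFC -2.08, standard error 0.39, FDR 0.0439) and an FDR of 0.329 without KA glia 2. The neurotensin receptor Ntsr2, an astrocyte gene, had 548, 215 and 510.0 in SH glia and 139.6, 69.6 and 84.3 CPM in KA glia (logFC -2.12, FDR 0.11). Slc6a11, which takes up GABA, had 105, 130.4 and 154 in SH glia and 60.8, 34.7 and 24.8 CPM in KA glia (logFC -1.7, FDR 0.128). Nkain4, which interacts with the sodium pump, had 64.6, 14.4 and 22.4 in SH glia and 9.47, 4.7 and 5.39 CPM in KA glia (logFC -2.38, FDR 0.124), with SH glia 1 at several times the other SH pools. All KA values lay below all SH values in these 4 genes, and KA and SH did not overlap for 279 of the 281 called genes. Ntsr2 and Slc6a11 were lost without SH glia 1, SH glia 3, KA glia 2 or KA glia 3 (FDR up to 0.609 and 0.537), and Nkain4 without SH glia 1, KA glia 2 or KA glia 3 (FDR up to 0.731). The glutamate transporter genes Slc1a2 and Slc1a3, picked after their values were seen, did not pass, with 451 ± 80.8 in SH and 257 ± 126 CPM in KA glia for Slc1a2 (logFC -0.81, FDR 1.00) and 788 ± 187 in SH and 385 ± 132 CPM in KA glia for Slc1a3 (logFC -1.03, FDR 1.00; mean ± SD, n = 3). With the block their FDR was 0.0849 and 0.0199.

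Of 34 genes of intermediary metabolism 9 were downregulated (26.5%) and 1 upregulated (2.94%), with a median logFC of -1.0, 22 down and 2 up by the block, 1 down with glial libraries alone, and between 0 (without KA glia 2) and 13 (without SH glia 2) down with 1 library left out. The list was written with the study's results known, and all called members but Ldhb and Aldoc are in its lists of genes changed in glia. Its share of falls thus describes the members chosen. Pcx (ENSMUSG00000024892, chromosome 19 from 4510472 to 4621752), the pyruvate carboxylase that refills the citric acid cycle, had 122.6, 80.8 and 141 in SH glia and 22.9, 28.9 and 37.3 CPM in KA glia (logFC -1.95, standard error 0.36, FDR 0.0438). Phgdh, the first enzyme of serine synthesis, had 102, 52 and 72.1 in SH glia and 30.9, 24.7 and 21.5 CPM in KA glia (logFC -1.56, FDR 0.0626). Fn3k, which repairs glycated proteins, had 15.9, 12.5 and 31.1 in SH glia and 5.56, 4.09 and 4.45 CPM in KA glia (logFC -2.08, FDR 0.0608). The lactate dehydrogenase subunit Ldhb had 84.2, 65.8 and 78 in SH glia and 33.1, 24.4 and 34.8 CPM in KA glia (logFC -1.3, FDR 0.131). Adi1, Slc25a18, Grhpr, Faah and Aldoc were the others that fell, and every one of the 9 was no longer called without KA glia 2. The FDR reached 0.389 for Pcx, 0.399 for Phgdh, 0.422 for Fn3k and 1.00 for Ldhb. Gpd1, the glycerol-3-phosphate dehydrogenase of the cytosol, rose, with 87.8, 57.4 and 104 in SH glia and 202, 229 and 475 CPM in KA glia (logFC 1.86, FDR 0.141), and was kept without KA glia 1 alone (FDR up to 0.478 in the others). Astrocytic markers summed to 0.677 times the SH level in KA, with overlapping groups, and their part in these falls was not tested.

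Of 28 genes of glutathione and oxidative stress 2 rose (7.14%) and 2 fell (7.14%), with a median logFC of -0.68, 4 up and 10 down by the block, 2 up and none down with glial libraries alone, and no call without low-input libraries. Hmox1, the haem oxygenase, had 5.71, 7.69 and 4.15 in SH glia and 16, 21.3 and 31.9 CPM in KA glia (logFC 1.98, FDR 0.216). Srxn1, which repairs peroxiredoxins, had 11.6, 13.1 and 26 in SH glia and 37.2, 63 and 103 CPM in KA glia (logFC 2.0, FDR 0.128). The glutathione transferase Gstm1, one of a family of similar genes, had 82.3, 38.9 and 59 in SH glia and 22.8, 12.7 and 19.7 CPM in KA glia (logFC -1.71, FDR 0.0978). Cytoglobin (Cygb) had 8.52, 7.25 and 11.4 in SH glia and 2.0, 2.75 and 3.25 CPM in KA glia (logFC -1.75, FDR 0.0651). Each of the 4 was lost without KA glia 2 and without at least 2 other libraries in turn, with FDR up to 0.884, 0.591, 0.581 and 0.527. Of 20 heat shock genes, Hspb1 alone was called (5%, median logFC -0.06), with 2 up and 2 down by the block.

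Myelin genes had 3 of 20 members downregulated (15%) and 1 upregulated (5%), with a median logFC of -1.18, 13 down and 1 up by the block, 1 down and 1 up with glial libraries alone, and no call without low-input libraries. Folh1, a glutamate carboxypeptidase, had 95.4, 55.1 and 148 in SH glia and 26, 19 and 17.6 CPM in KA glia (logFC -2.26, FDR 0.0824). Aspa, which splits N-acetylaspartate for the lipids of myelin, had 316, 226 and 467 in SH glia and 101, 69.9 and 107 CPM in KA glia (logFC -1.86, FDR 0.235). Tppp3, of a family of tubulin-polymerizing proteins, had 105, 48.8 and 109 in SH glia and 32.3, 22.2 and 27.2 CPM in KA glia (logFC -1.69, FDR 0.128). All 3 were lost without SH glia 3, KA glia 2 or KA glia 3 (FDR up to 0.413, 1.00 and 0.721). Gldn, known as gliomedin of the nodes of Ranvier, rose, with 1.45, 5.6 and 1.58 in SH glia and 22.9, 21.7 and 16.1 CPM in KA glia (logFC 2.81, FDR 0.0608) and an FDR of 0.301 without SH glia 3.

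Of 18 genes of oligodendrocyte precursors 2 fell (11.1%) and 1 rose (5.56%), with a median logFC of -0.91, and 11 fell and 1 rose with the block and none fell with glial libraries alone. Cspg4 (ENSMUSG00000032911), the proteoglycan NG2 that defines these cells, had 314, 245 and 315 in SH glia and 122, 75.7 and 123.3 CPM in KA glia (logFC -1.44, FDR 0.24), and its call, like that of Bcan, was lost when any library other than SH glia 2 was left out (FDR up to 1.00). Cacng5, which regulates AMPA receptors, rose, with 14.9, 19.9 and 19.8 in SH glia and 47.1, 81.9 and 126 CPM in KA glia (logFC 2.22, standard error 0.39, FDR 0.0339), and kept its call without any 1 library. Of 32 genes of the Notch pathway and of neural progenitors 3 fell (9.38%, median logFC -0.39), with 11 down and 1 up by the block and none with glial libraries alone. Hhip, a binding protein of hedgehog ligands, had 94.1, 78.5 and 144 in SH glia and 36, 18.8 and 17.1 CPM in KA glia (logFC -2.14, standard error 0.39, FDR 0.0436) and kept its call without any 1 library. The Notch target Hes5 had 81.6, 14.3 and 30.8 in SH glia and 12.6, 2.71 and 3.71 CPM in KA glia (logFC -2.75, FDR 0.24), with SH glia 1 well above the other SH pools, and overlaps Gm20421 on the opposite strand. The Notch ligand Dll3 had 32.7, 17.4 and 27.5 in SH glia and 10.8, 4.51 and 8.77 CPM in KA glia (logFC -1.69, FDR 0.249). Hes5 was lost without SH glia 1, SH glia 3, KA glia 2 or KA glia 3 (FDR up to 0.941), and Dll3 was kept without SH glia 2 alone (FDR up to 1.00). The precursor markers, in sum 0.475 times as high in KA, moved with these falls, and their part in them was not tested.

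Secreted peptides and growth factors had 10 of 29 members upregulated (34.5%) and 1 downregulated (3.45%), with a median logFC of 1.44, 15 up and 3 down by the block, 8 up and none down with glial libraries alone, 3 up without low-input libraries, and 6 up without KA glia 3. Vgf (ENSMUSG00000037428, chromosome 5 from 137026392 to 137033351), a precursor of neuropeptides, had 17.8, 30.6 and 33.3 in SH glia and 139, 116 and 332 CPM in KA glia (logFC 2.84, standard error 0.48, FDR 0.0284). Inhba, which encodes the subunit of activin A, had 7.24, 7.25 and 4.87 in SH glia and 18.8, 42 and 81 CPM in KA glia (logFC 2.88, FDR 0.0295). The neuropeptide gene Gal had 0.161, 0.292 and 0.359 in SH glia and 1.48, 3.86 and 4.53 CPM in KA glia (logFC 3.53, FDR 0.0293). Calca, the gene of calcitonin and CGRP, had 0.161, 0.487 and 0.0896 in SH glia and 5.56, 3.25 and 9.02 CPM in KA glia (logFC 4.58, FDR 0.0324). These and Ucn2 kept their calls without any 1 library, and Gal and Calca were under 1 CPM in all SH pools. Nptx2, Btc, Bdnf, Hbegf and Fgf18 were the other rises, and Enho, which encodes adropin, fell, with 37.2, 15.8 and 23.5 in SH glia and 9.73, 11.4 and 6.92 CPM in KA glia (logFC -1.44, FDR 0.215), kept without SH glia 2 alone (FDR up to 0.941). Of the 11 called genes 7 lay below the neuronal share in SH and 3 in KA by the median of the markers, 8 and 5 by their mean. In neurons 4 of the 11 were also called, where 0.279% of all genes were upregulated. Vgf was 158 ± 31.7 in SH and 808 ± 212 CPM in KA neurons (mean ± SD, n = 3), several times its level in glia, whereas Ucn2 was 0.515 ± 0.41 in SH and 0.445 ± 0.239 CPM in KA neurons. The part of neuronal RNA in these rises was not tested.

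Of 21 genes of growth arrest and DNA damage 4 were upregulated (19%, median logFC 0.63), 6 with the block (and 1 down) and 2 without SH glia 3 or KA glia 3. Gadd45g had 17.5, 21.9 and 15.2 in SH glia and 94.2, 79.2 and 172 CPM in KA glia (logFC 2.66, standard error 0.5, FDR 0.0438). Its paralogue Gadd45b, likewise a stress sensor that binds cell cycle kinases, had 7.4, 39.3 and 4.9 in SH glia and 163, 62.6 and 201 CPM in KA glia (logFC 3.04, FDR 0.137) with SH glia 2 above the other SH pools, and was lost without SH glia 1, SH glia 3 or KA glia 3 (FDR up to 0.481). Parp3, an ADP-ribosyltransferase of DNA repair, had 12.5, 13 and 25.2 in SH glia and 68.4, 76.9 and 222 CPM in KA glia (logFC 2.86, FDR 0.0581). Gadd45g and Parp3 kept their calls without any 1 library. Timeless, of the replication fork, had 10, 13.2 and 7.71 in SH glia and 20.3, 28 and 39.2 CPM in KA glia (logFC 1.5, FDR 0.138), lost without SH glia 3, KA glia 2 or KA glia 3 (FDR up to 0.77).

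Genes of hippocampal excitatory neurons had the largest share of falls of the 28 lists. This list was written with the study's results on these data known. Every member called here is among the genes that the study lists as downregulated in glia. Its share and rank thus describe the members chosen and are no test. Of 28 tested, 12 were downregulated (42.9%, median logFC -1.22), 20 with the block, none of them without KA glia 2, without both low-input libraries or with glial libraries alone, and 11 without SH glia 2. Plk5, a polo-like kinase of neurons, had 11.3, 14.4 and 22.4 in SH glia and 5.39, 1.22 and 2.47 CPM in KA glia (logFC -2.45, standard error 0.49, FDR 0.060) and an FDR of 0.326 without KA glia 2. The orphan receptor Gpr12 had 9.33, 12.8 and 13.1 in SH glia and 1.91, 1.84 and 4.04 CPM in KA glia (logFC -2.17, FDR 0.063). Chn1, a regulator of the GTPase Rac, had 77.3, 104 and 133 in SH glia and 25.8, 27.6 and 44.6 CPM in KA glia (logFC -1.68, FDR 0.083). Gpr12 was lost without KA glia 1 or KA glia 2 (FDR up to 0.588) and Chn1 without SH glia 3, KA glia 1 or KA glia 2 (FDR up to 0.972). Kctd4, Calb1, Ppp1r1b, Itpka, Shisa8, Htr1a, Nrgn, Hpca and Lin7b were the others, and Lin7b overlaps Gm45619 on the opposite strand. Their level in glia was 10.6% to 1030% of that in neurons in SH and 8.63% to 147% in KA, with 6 of 12 below the neuronal share in SH and 5 in KA by the median of the markers, and 9 in each by their mean. In neurons 11 of the 12 had a negative logFC (18784 of all 37598 genes did) and 3 were downregulated (0.0612% of all genes). The neuronal share differed between KA and SH glia by -5.64 percentage points by the median and by -18.65 by the mean of the markers, with p = 0.6 and 0.2 in exact permutation tests, and its part in these falls was not tested.

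**Figure D4:**
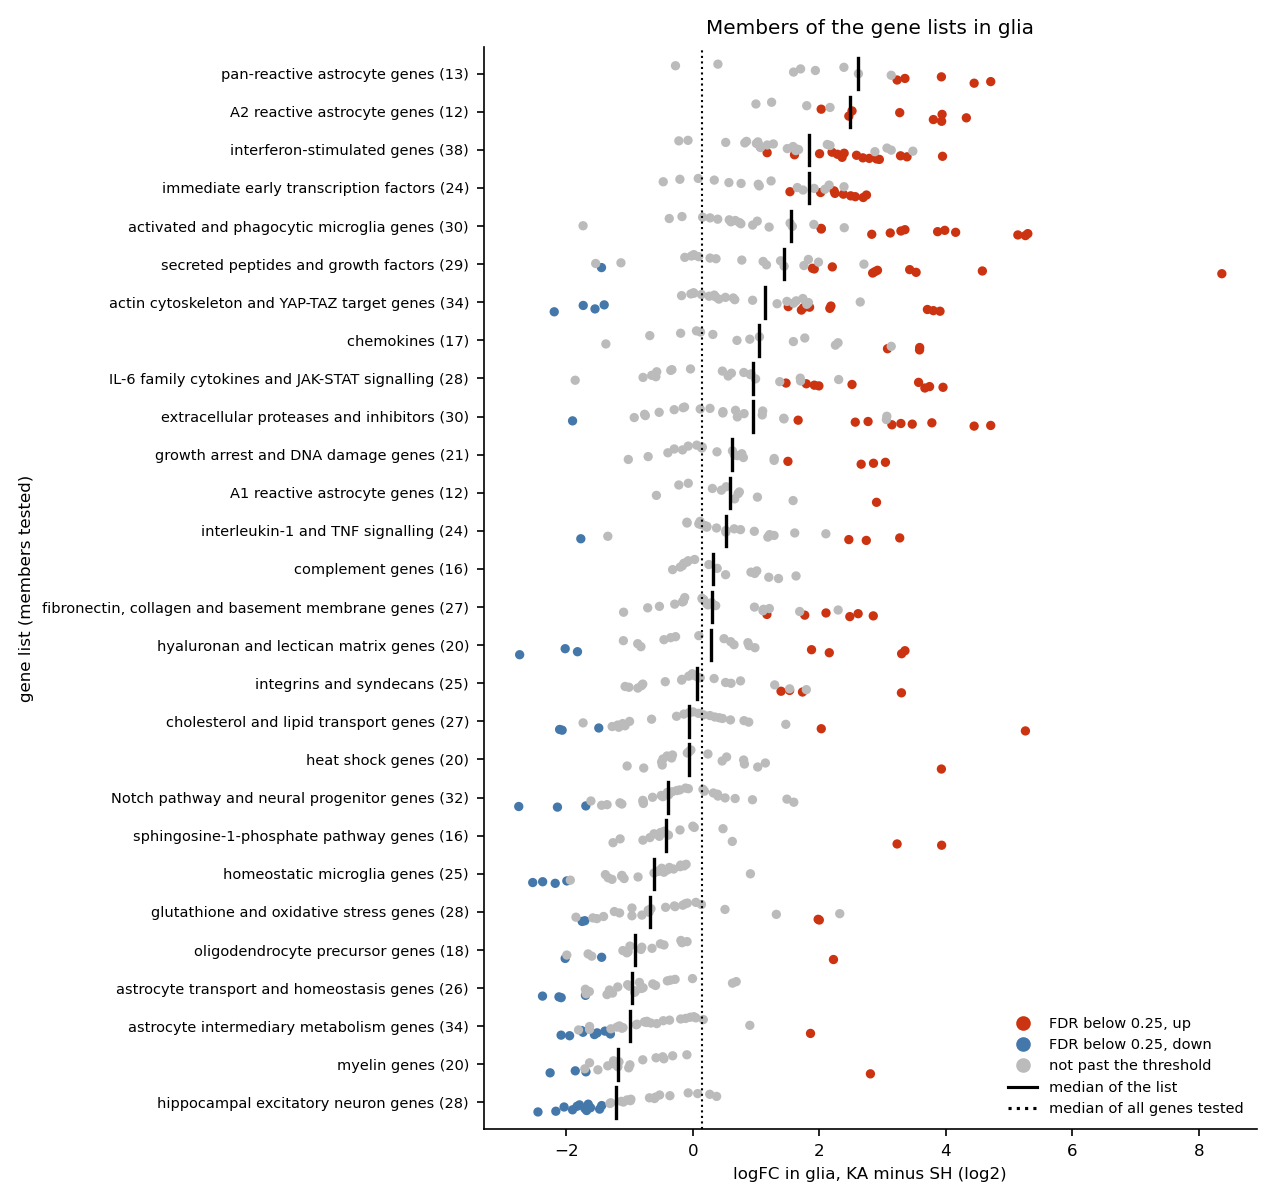
logFC of KA minus SH in glia for every member tested of the 28 gene lists, with red and blue points for genes called up and down, grey points for genes not called, a bar at the median of each list and a dotted line at the median of all genes, 0.14. List medians run from -1.22 (hippocampal excitatory neuron genes) to 2.62 (pan-reactive astrocyte genes).

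The same contrast in NeuN+ nuclei of the same pools gave 105 upregulated (0.279%) and 23 downregulated genes (0.0612%), and 18814 of all genes tested had a positive and 18784 a negative logFC there. Of the 166 genes upregulated in glia 150 had a positive logFC in neurons and 40 were upregulated there, and of the 115 downregulated genes 108 had a negative logFC and 4 were downregulated. The part of glial RNA in the NeuN+ libraries in these shared changes was not tested. The difference between the effects was tested as an interaction, and edgeR's quasi-likelihood test called 0 genes at an FDR below 0.25 (smallest FDR 0.444). At an unadjusted p below 0.05 there were 502 genes (1.34%), DESeq2 called 39, limma-voom and the edgeR 4 method 0 each, and the fit without KA glia 1 called 3. With a block by pool, which uses that both cell types come from the same pool, 177 genes were called, 64 of them among the genes called in glia. By that fit the smallest FDR among the genes named here belonged to Thbd (0.0084), Gdpd2 (0.0178) and Cebpd (0.0276). Cebpd had a logFC of 1.99 in glia and logFC -0.45, FDR 1.00 in neurons, with 63.6 ± 20.7 in SH and 46.6 ± 9.07 CPM in KA neurons (mean ± SD, n = 3). Thbd rose in glia and had 18 ± 4.51 in SH and 15 ± 6.09 CPM in KA neurons (logFC -0.26, FDR 1.00). Timp1 was called in both cell types, with 0.22 ± 0.225 in SH and 7.56 ± 4.86 CPM in KA neurons (logFC 4.99, FDR 0.0251), and so was Socs3, with 4.29 ± 0.875 in SH and 96.3 ± 66.5 CPM in KA neurons (logFC 4.49, FDR 0.0251). P2ry12 and Siglech were at most a few CPM in neurons, with 5.69 ± 2.84 in SH and 3.65 ± 1.74 CPM in KA neurons for P2ry12.

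**Figure D5:**
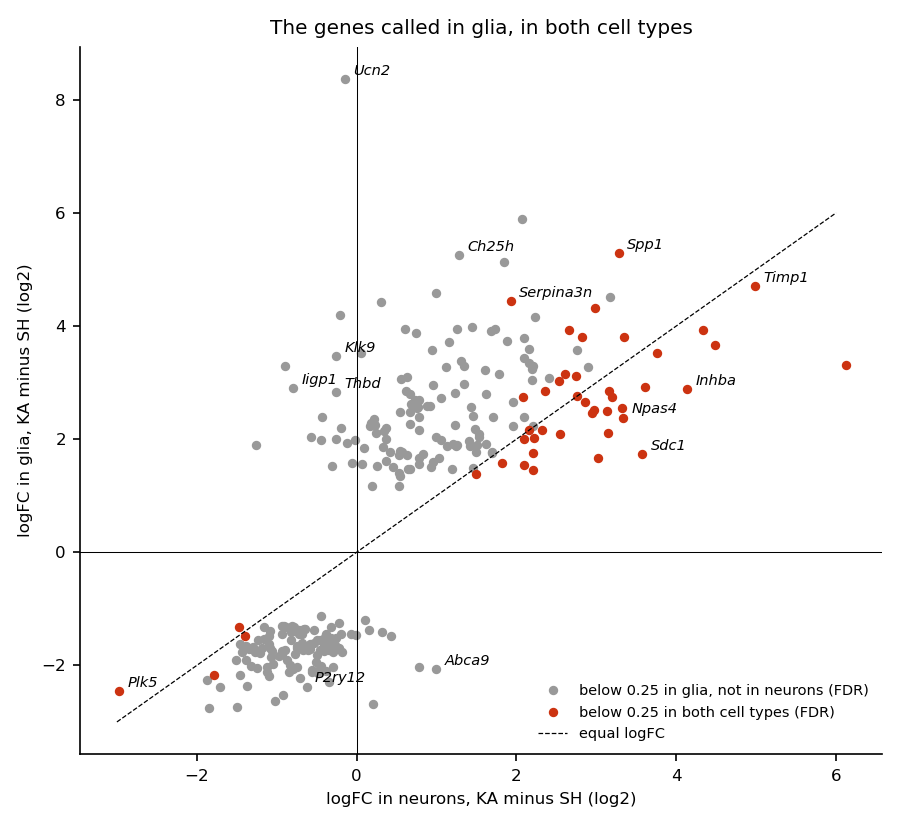
logFC of KA minus SH in glia (vertical) against that in neurons (horizontal) for the 281 genes called in glia, red where the gene was called in both cell types, with a dashed line of equal logFC. Most points lie in the quadrants of equal sign, 150 of 166 upregulated and 108 of 115 downregulated genes, while Ucn2 and Iigp1 lie at negative and Abca9 at positive logFC in neurons.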

How the data were processed

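The mRNAseq libraries of NeuN- and NeuN+ nuclei were analysed, and the RRBS data of the study were not analysed here. The authors used Trim Galore 0.4.3 for trimming, Rsubread for alignment to mm10, and featureCounts at its default, unstranded settings with GENCODE M16 for counting of uniquely mapped reads. They deposited whole-number counts for 53379 genes without normalization. Such counting drops reads shared by the exons of several genes, and which library was run on which sequencer is not given in the sources used here. Total counts per glial library ranged from 7769400 to 40364768, and pools sequenced more deeply carry less counting error.

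Symbols and positions (GRCm38) were taken from GENCODE M21, and 105 genes without a symbol were left out. After filterByExpr (minimum count 10, minimum total 15) 37598 genes remained. A model of 4 group means (KA and SH, glia and neurons) was fitted to all 12 libraries after TMM normalization, with R 4.3.3 and the functions glmQLFit (legacy) and glmQLFTest of edgeR 4.0.16. FDR is the Benjamini-Hochberg adjustment over all 37598 genes, with a threshold of 0.25. Alternatives used DESeq2 1.42.0 and limma 3.58.1. The study's methods describe the cell types as treated separately, which became an alternative. Dividing the absolute logFC by the root of the F statistic gave its standard error. Labels do not state that pools of the same number are paired. Across genes, equally numbered KA and SH glia deviated together from the means of their groups, with correlations of 0.502, 0.527 and 0.801 (log2 CPM with an offset of 0.5), and every glial library correlated best with its own number, so replicate number served as a block in a second fit. P values of the main fit rest on the spread between libraries within the 4 groups, taken over glia and neurons together. That fit ignores that libraries of both cell types come from the same pools. The scripts were tested on simulated counts with known changes.

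The 28 gene lists, 9 marker lists and the comparison itself were chosen with the paper and earlier results of these data known. Named genes are, per list, up to 4 called members per direction with the smallest p (2 where none was called), and the 8 largest rises and 8 largest falls among called protein-coding genes of at least 1 CPM on average whose KA and SH libraries did not overlap; names outside this rule are marked as picked after their values were seen or complete the called members of a list. Cntf, Ccl11, Cfb and the leukocyte marker S100a8 did not pass the filter. A few members that were tested are not reported by name here. Motifs were searched on both strands in RefSeq promoters of GRCm38.p6. Marker sums were compared by exact two-sided permutation tests. Alternatives were other scalings, filters, tests and thresholds, blocks, all gene IDs, autosomes, and libraries left out.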

Additional observations from a re-analysis of the deposited data

Results flagged for a closer look

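For 3 of the genes named in the report all KA pools moved one way in glia and the opposite way in neurons, relative to the SH pools of the same cell type. The interferon-inducible GTPase Iigp1 rose in glia and had 3.75 ± 0.318 in SH and 2.15 ± 0.325 CPM in KA neurons (mean ± SD, n = 3), so that the logFC in glia minus that in neurons was 3.70. The same difference was 2.60 for Lpl, which encodes lipoprotein lipase and had 47.2 ± 8.97 in SH and 31.8 ± 8.26 CPM in KA neurons (mean ± SD, n = 3). For the lipid transporter Abca9 it was -3.07, with 4.57 ± 0.785 in SH and 9.12 ± 2.61 CPM in KA neurons (mean ± SD, n = 3). In the interaction test of edgeR without a block the FDR was 0.518 for Iigp1, 1.00 for Lpl and 0.451 for Abca9, and with a block by pool it was 0.0485, 0.0588 and 0.0485, so that the 3 differences passed the threshold of 0.25 with the block and not without it.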

How the results depend on the processing

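With the replicate number as a block the counts were 1305 up and 1566 down (1460 and 857 with glial libraries alone), and every gene called in the unblocked fit was also called there. The block changed no call of the 101 called genes named in the report and added 2. With glial libraries alone and no block 129 genes were upregulated and 17 downregulated, and the neuronal share differed by -18.6 percentage points by the mean of the markers. Scaling by library size alone gave 514 up and 226 down, moved the median logFC of all genes from 0.14 to 0.419 and the share of calls that were rises from 59.1% to 69.5%. DESeq2 size factors gave a median of 0.125 and a share of 56.6%. A minimum of 10 counts in every glial library gave 417 up and 725 down, the DESeq2 Wald test 365 and 645, and the edgeR 4 method 287 and 228, while limma-voom gave 175 down. At an FDR below 0.05 there were 51 up and 11 down, and without both low-input libraries 40 and 1. With 1 glial library left out, upregulated genes ranged from 66 to 314, downregulated genes from 6 to 240, and genes that differed between glia and neurons from 0 to 3. With a block by pool 177 genes differed between glia and neurons, where 0 had passed in the unblocked fit. The ratio of ependymal and choroid plexus markers turned from 0.368 to 1.17 without low-input libraries, an alternative chosen after seeing the data. No named gene changed direction in any alternative, and 27 of 103 stayed on the same side of the threshold in all. Without both low-input libraries 72 of 103 named genes lost the call, with glial libraries alone 40, with no filter on low counts 14, with library size alone 8 and with limma-voom 4. The cause was not tested for these changes, other than that leaving out libraries removes samples. The 3 pools per treatment, of which 1 each was amplified from 0.05 ng, and a common biological coefficient of variation of 0.674 limit the precision of single genes.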

Other observations

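Of the 281 called genes, 105 upregulated and 51 downregulated genes are on at least 1 of the 28 lists, and the genes in this paragraph are on none and were picked after their values were seen. The hairpin loci of 2 neighbouring microRNAs on chromosome 11 were among them. Mir132 (ENSMUSG00000065537) had 3, 3 and 5 counts in SH and 3, 55 and 120 in KA glia (logFC 3.8, FDR 0.124), and Mir212 (ENSMUSG00000065590) had 0, 4 and 2 counts in SH and 1, 40 and 118 in KA glia (logFC 4.52, FDR 0.171). KA glia 1 stayed at the SH level in both, the KA and SH libraries of Mir212 overlapped, and both calls were lost without SH glia 1, SH glia 3 or KA glia 3 (FDR up to 0.495 and 0.65). The libraries were made from amplified nuclear RNA and do not measure the mature microRNA. The 3p arms are shown because they share a seed, bases 2 to 8, printed in capitals, as RefSeq gives them for GRCm38.p6.
miR-132-3p (chr11:75173723-75173744, plus strand): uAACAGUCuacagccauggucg
miR-212-3p (chr11:75173443-75173464, plus strand): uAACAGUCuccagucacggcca

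Among other upregulated genes on no list were the alarmin Il33, with 66.3, 99.1 and 102 in SH glia and 202, 269 and 578 CPM in KA glia (logFC 1.97, FDR 0.204), and the transglutaminase Tgm2, with 4.42, 8.13 and 3.91 in SH glia and 14.6, 27.1 and 66.8 CPM in KA glia (logFC 2.72, FDR 0.124). The polyamine enzyme Odc1 had 8.92, 14.2 and 15.9 in SH glia and 24, 36.4 and 73.5 CPM in KA glia (logFC 1.77, FDR 0.175), and the zinc and iron transporter Slc39a14 had 77.7, 118 and 84.8 in SH glia and 276, 221 and 739 CPM in KA glia (logFC 2.14, FDR 0.101). Among downregulated genes, the clock-controlled transcription factor Dbp had 24.7, 30.1 and 33.9 in SH glia and 11.8, 5.24 and 9.18 CPM in KA glia (logFC -1.77, FDR 0.0687). Its relative Hlf had 12.5, 35.4 and 31 in SH glia and 10.6, 6.92 and 7.41 CPM in KA glia (logFC -1.67, FDR 0.131). The glucocorticoid-induced gene Tsc22d3 had 125, 95.2 and 145 in SH glia and 53.5, 15.9 and 35.8 CPM in KA glia (logFC -1.8, FDR 0.124). For none of these 7 genes did the KA and SH libraries overlap, as for 279 of the 281 called genes. Each was no longer called without SH glia 3 and without at least 1 KA library in turn (FDR up to 0.711, that of Hlf).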
